A study of Mus musculus with 24 samples.

Results

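Glucose taken up by muscle passes through a short series of steps, and 9 genes that encode proteins of those steps were followed here in mouse gastrocnemius, a mainly fast muscle of the calf. They are Slc2a4 and Slc2a1, which encode the insulin-responsive and the basal glucose transporter GLUT4 and GLUT1, Hk1 and Hk2, the hexokinases that trap glucose as glucose 6-phosphate, Fbp2, the muscle fructose-1,6-bisphosphatase that runs against phosphofructokinase, Gpd1 and Gpd2, the cytosolic and mitochondrial glycerol-3-phosphate dehydrogenases, and Ldha and Ldhb, the subunits of lactate dehydrogenase. The 9 genes were chosen by name, with earlier results of these data known, out of 10673 gene symbols with a measured probe. All probes on the array that carry one of these names were taken, 17 in all, of which 12 passed the filter on dim signals, and these 12 covered all 9 genes. The 5 probes that did not pass all belonged to Hk1.

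In skeletal muscle insulin moves GLUT4 from stored vesicles to the surface, and Hk2 is the hexokinase that responds most to insulin and to contraction. Gpd1 and Gpd2 together form the glycerophosphate shuttle, in which cytosolic NADH reduces dihydroxyacetone phosphate and the electrons enter the respiratory chain at the mitochondrial inner membrane. Lactate dehydrogenase regenerates cytosolic NAD from pyruvate instead, with Ldha prevailing in fast glycolytic fibres and Ldhb in oxidative ones. The diets addressed how muscle handles a carbohydrate meal after long feeding of fat.

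Male C57BL/6N mice, 3 months old at the start, were fed for 8 weeks a corn-oil high-fat diet in which lipids made up 35% of the weight (cHF, n = 8), the same diet with 15% of the lipids replaced by a concentrate of long-chain n-3 fatty acids with 46% DHA and 14% EPA (cHF+F, n = 8), or the same diet with 10 mg of the PPAR-gamma agonist rosiglitazone per kg diet (cHF+ROSI, n = 8). All 24 mice were then fasted for 10 hours and re-fed Chow, a low-fat diet, overnight before they were killed, so every value describes the re-fed state. RNA of each mouse, labelled with Cy5, was hybridised against 1 Cy3-labelled pool of the study's RNA, which also held mice given a higher rosiglitazone dose that were not analysed here. Each of the 8 slides carried 1 mouse of each diet, always at the same position for a given diet, so that position on the slide and diet cannot be told apart. The level of a probe is given as log2 (Cy5 / Cy3), the level in that mouse relative to the pool, and values of different probes are not compared as amounts. As the tissue is a bulk sample, fewer cells of a type and less RNA per cell cannot be told apart.

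The arrays differed in quality. In Cy5, 30.4% of spots were well above background on cHF replicate 3 and 91.1% on cHF+ROSI replicate 4, against 41.5% to 61.3% on the other 22 arrays. On cHF+ROSI replicate 3 the brightest 2% of probes, members left out, had a median log2 ratio of -0.70, against -0.25 on cHF+ROSI replicate 2 and between -0.14 and 0.096 on the others. Results are therefore also given without cHF replicate 3 and cHF+ROSI replicates 3 and 4, a choice made after seeing the data. The labelled tissue was checked by its markers. All 7 skeletal muscle markers (Acta1, Ckm, Mb, Tnnt3, Tnni2, Mylpf and Pvalb) and all 7 fast fibre markers (Myh4, Myh1, Tnnt3, Tnni2, Mylpf, Pvalb and Atp2a1) passed the filter. Tnnt3, Tnni2, Mylpf and Pvalb are in both lists. Of the other lists, 7 of 7 slow fibre, 7 of 7 adipocyte, 5 of 5 endothelial, 5 of 5 macrophage, 3 of 4 nerve, 2 of 3 erythroid and 3 of 5 liver markers also did.

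No member passed the threshold between any 2 diets after Benjamini-Hochberg adjustment over the 15958 probes tested with limma. That held for the array as a whole, since percent called was 0 in each of the 3 comparisons. At an unadjusted p under 0.05, the count was 0 of 9 genes, by their brightest probe, between cHF+F and cHF, where 6.86% of all probes did, 0 of 9 between cHF+ROSI and cHF, where 4.7% did, and 4 of 9 between cHF+F and cHF+ROSI, where 6.67% did. Those 4 were Fbp2 and Gpd1, with higher values in cHF+F, and Slc2a1 and Hk1, with lower values in cHF+F. The median difference of the 9 genes was 0.089 (log2) for cHF+F against cHF, -0.0084 for cHF+ROSI against cHF and 0.15 for cHF+F against cHF+ROSI, beside 0.00063, -0.0086 and 0.0084 over all probes. The comparisons share animals, so their counts are not independent. As the genes were chosen with earlier results of these data known, the counts describe them and are no test of the list. Without the 3 arrays that stood apart, 3 of the 4 genes remained at that level: Fbp2 at 0.36, Gpd1 at 0.30 and Hk1 at -0.15, while Slc2a1 stood at -0.20. With slide as a block the count was again 4, with Slc2a4 in place of Slc2a1. At that level the block gave 2094 of the 15958 probes in this comparison. It gave 1933 between cHF+F and cHF and 1524 between cHF+ROSI and cHF.

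**Figure D1:**
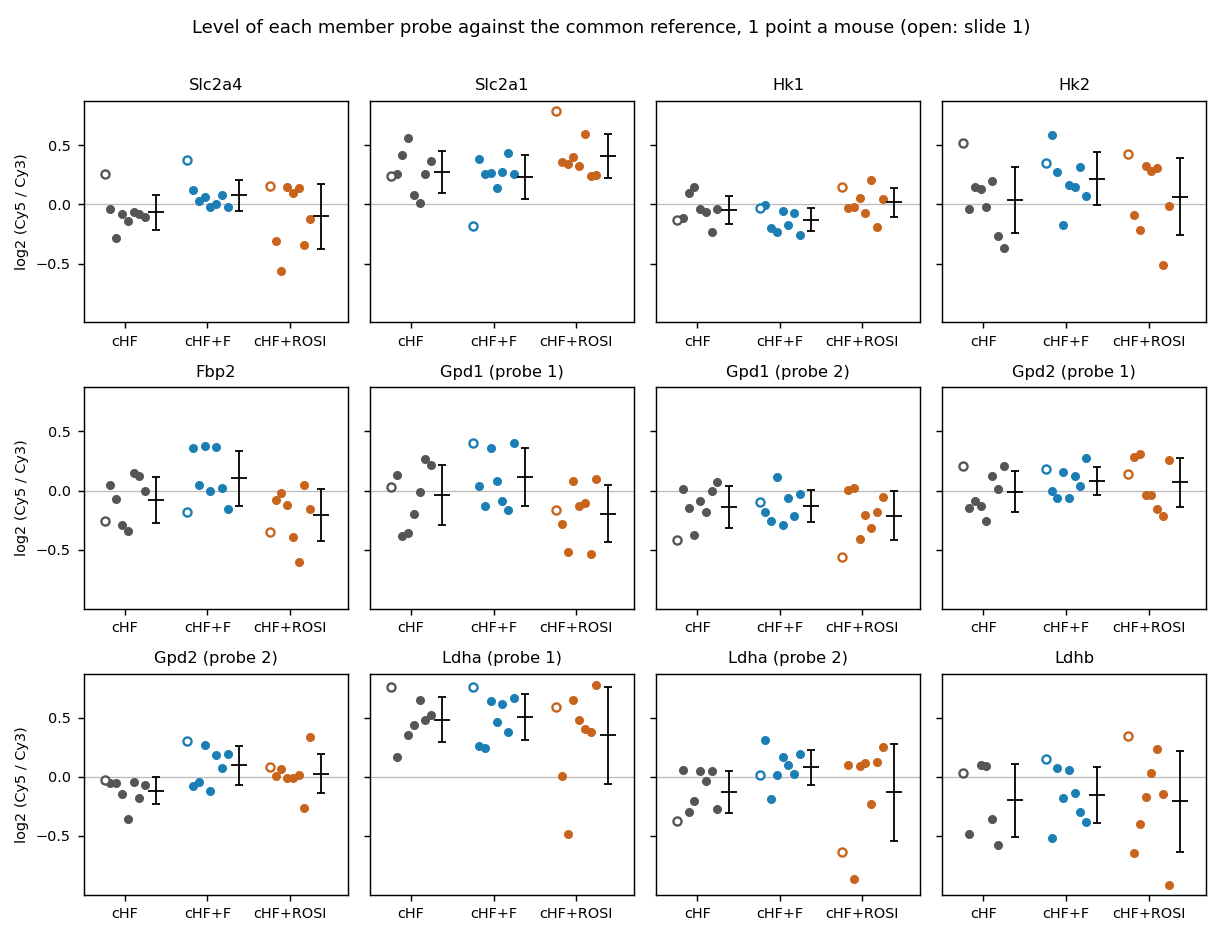
Log2 (Cy5 / Cy3) of the 12 measured member probes in each mouse of the 3 diets, open points on slide 1, with the mean and SD of each group beside its points. The groups overlapped at every probe, and the widest spread was that of Ldhb and Ldha in cHF+ROSI.

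Slc2a4 was measured by 1 probe (NM_009204, chr11:69758766-69758825 on the minus strand of mm8) that is printed at 10 places on each array. Its levels ran from -0.28 to 0.26 with a median of -0.080 in cHF, from -0.025 to 0.38 with a median of 0.047 in cHF+F, and from -0.56 to 0.15 with a median of -0.011 in cHF+ROSI. The 3 groups overlapped, and within each the highest mouse was that of slide 1. The mean difference between cHF+F and cHF was 0.15 ± 0.094 (log2, SE), 95% interval -0.047 to 0.34, limma adjusted p = 0.859. On every one of the 8 slides the cHF+F mouse had the higher level, by 0.068 (log2) on slide 6 to 0.31 on slide 3, as did 1.8% of all probes. With slide as a block the adjusted p = 0.424, and without slide 1 the difference was 0.15 (adjusted p = 0.686). In Cy5 alone, without the reference, it was 0.074.

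The copies of the Slc2a4 probe give the scatter between spots of the same array, which leaves out error between arrays. Of 240 spots, 17 were flagged as uneven or outlying and left out. The SD between spots of one array was 0.075 (median) and ranged from 0.033 to 0.22, beside an SD of 0.20 between mice within groups. As each mouse had its own array, the latter also holds differences between arrays. The 3 arrays of slide 1 had the 3 widest spreads: 0.21 for cHF, 0.21 for cHF+F and 0.22 for cHF+ROSI. Their spots ran from -0.070 to 0.56 in the cHF mouse, a range wider than that between the lowest and highest mouse of the group. In cHF replicate 3 the raw Cy5 signal of the spots had an SD of 1.27 (log2), against 0.37 at most on any other array, and the Cy3 signal of the same spots had an SD of 1.23, while the log2 ratio had an SD of 0.093 over the 7 spots kept.

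**Figure D2:**
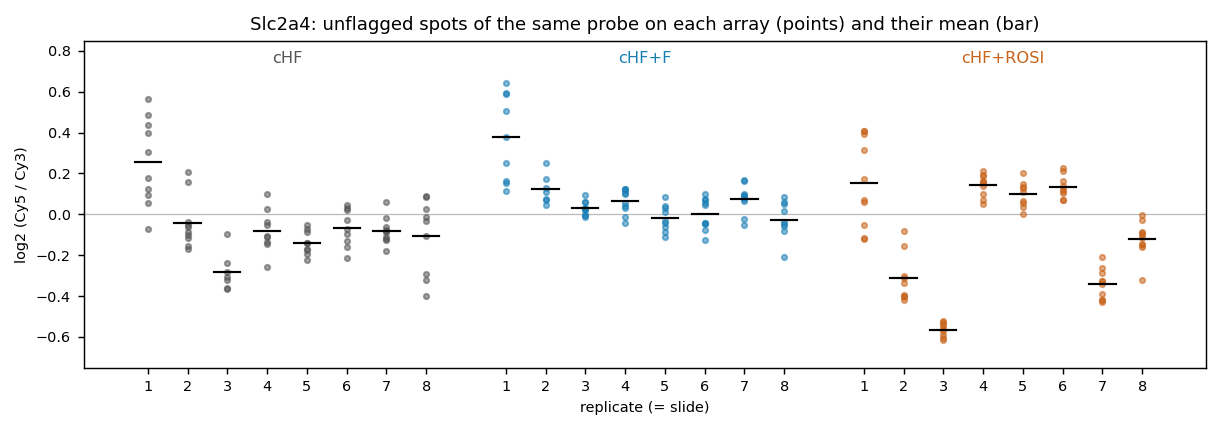
Log2 (Cy5 / Cy3) of each unflagged Slc2a4 spot (points) and their mean (bar) on the 24 arrays, by diet and slide number. Spots of slide 1 scatter most in all 3 diets, and the low means in cHF+ROSI belong to replicates 2, 3 and 7. On replicates 2 and 3 the brightest probes were low as a set.

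Within cHF+ROSI the Slc2a4 levels of 4 mice lay at 0.097 to 0.15 (replicates 1, 4, 5 and 6) and those of the other 4 at -0.56 to -0.12 (replicates 2, 3, 7 and 8). Replicates 2 and 3 are the arrays on which the brightest probes were low as a set. With Feature Extraction's processed signals their Slc2a4 levels were -0.050 and 0.13, and those of replicates 7 and 8 were -0.37 and -0.14. The part of these arrays in the Slc2a4 levels of cHF+ROSI was not tested. The difference from cHF was -0.033 ± 0.094 (log2, SE), 95% interval -0.23 to 0.16, limma adjusted p = 0.996, and its sign turned with Feature Extraction's processed signals, with median centring and without background correction. Against cHF+F, the difference of cHF+F from cHF+ROSI was 0.18 ± 0.094 (log2, SE), 95% interval -0.013 to 0.37, limma adjusted p = 0.768, 5 of 8 slides having the higher level in cHF+F. With slide as a block it passed an unadjusted p of 0.05 (adjusted p = 0.290). Without the cHF+ROSI mouse of slide 3 it was 0.11.

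Slc2a1, the transporter that sets basal uptake and is abundant in endothelial cells, was measured by 1 probe (NM_011400, chr4:118635191-118635250, plus strand). Levels ran from 0.016 to 0.56 with a median of 0.26 in cHF, from -0.18 to 0.43 with a median of 0.26 in cHF+F, and from 0.24 to 0.79 with a median of 0.35 in cHF+ROSI, the groups overlapping. The lowest cHF+F mouse and the highest cHF+ROSI mouse both lay on slide 1, and the slide gave a difference of -0.96 between them. Over all mice the cHF+F minus cHF+ROSI difference was -0.18 ± 0.088 (log2, SE), 95% interval -0.36 to -0.0030, limma adjusted p = 0.740. Without slide 1 it was -0.072 (adjusted p = 0.867), no longer past an unadjusted p of 0.05, nor was it with slide as a block (adjusted p = 0.420). Against cHF the differences were -0.047 ± 0.088 in cHF+F and 0.14 ± 0.088 in cHF+ROSI. The mean over the 5 endothelial markers ran from -0.20 to 0.31 in cHF, -0.39 to 0.033 in cHF+F and -0.22 to 0.069 in cHF+ROSI. All 5 had a lower mean in cHF+F and in cHF+ROSI than in cHF. Of these, 2 in cHF+F and 3 in cHF+ROSI had an unadjusted p under 0.05, and 0 passed after adjustment. The part of endothelial cells in the Slc2a1 values was not tested.

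Hexokinase 2 was measured by 1 probe (NM_013820, chr6:82690720-82690779, minus strand). Its levels varied widely among mice, from -0.37 to 0.51 with a median of 0.053 in cHF, from -0.18 to 0.59 with a median of 0.22 in cHF+F and from -0.51 to 0.43 with a median of 0.14 in cHF+ROSI. All groups overlapped. The difference between cHF+F and cHF was 0.18 ± 0.13 (log2, SE), 95% interval -0.084 to 0.45, limma adjusted p = 0.893. Rosiglitazone gave 0.028 ± 0.13 against cHF, with 4 slides higher and 4 lower, and cHF+F minus cHF+ROSI was 0.15 ± 0.13. In Cy5 alone these differences were 0.50 for cHF+F and 0.69 for cHF+ROSI against cHF (adjusted p = 0.9998 and adjusted p = 0.798), and -0.19, with the sign turned, for cHF+F against cHF+ROSI. In that channel cHF replicate 3, an array that stood apart, was at 10.6 (log2), against 13.9 to 15.3 on the other cHF arrays. The part of this array in the Cy5 differences was not tested.

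Hk1, the hexokinase found in nearly all tissues and bound to mitochondria, had 6 probes. Only that matching the cDNA BC072628 (chr10:61664525-61664584, minus strand), named by the array's own annotation, passed the filter, with a signal of 20.7 times background in Cy5. The 5 probes to NM_010438 lay between 1.86 and 3.12 times background in Cy5, were under 2 times in Cy3, and were set aside as dim, though 2 of them were well above background in Cy5 on 22 and 23 of the 24 arrays. At the bright probe cHF ran from -0.23 to 0.15 with a median of -0.051, cHF+F from -0.26 to -0.0072 with a median of -0.12 and cHF+ROSI from -0.19 to 0.21 with a median of 0.011. The cHF+F minus cHF+ROSI difference was -0.15 ± 0.060 (log2, SE; 95% interval -0.27 to -0.022, limma adjusted p = 0.715), a 0.904-fold level. All 8 cHF+F mice lay below the cHF+ROSI mean, while on the slides 5 of 8 pairs were lower and the block gave an adjusted p = 0.324. At the dim probes the differences in a fit without the filter ran from -0.22 to 0.011. The lowest of these, at a probe 1.86 times background, also had an unadjusted p under 0.05, and the other 4 did not. In Cy5 alone the difference at the bright probe was -0.019.

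Fbp2 showed the largest difference of the 9 genes between the treated diets. Its probe (NM_007994) is described in the files by a span of 4516 bases, chr13:62859115-62863630 on the minus strand of mm8, longer than a probe and so across a splice junction. Levels ran from -0.34 to 0.15 with a median of -0.037 in cHF, from -0.18 to 0.37 with a median of 0.035 in cHF+F and from -0.60 to 0.048 with a median of -0.14 in cHF+ROSI. The 3 highest mice of all were cHF+F replicates 2, 4 and 6 and the 2 lowest were cHF+ROSI replicates 5 and 6, though the groups overlapped. The cHF+F level was 1.24 times that of cHF+ROSI, a difference of 0.31 ± 0.10 (log2, SE), 95% interval 0.10 to 0.52, limma adjusted p = 0.589. All 8 cHF+F mice lay above the cHF+ROSI mean, and the cHF+F mouse was higher on 7 of 8 slides, as it was on at least 7 slides for 6.52% of all probes. The slide differences ran from -0.024 on slide 7 to 0.97 on slide 6. With slide as a block the adjusted p = 0.185. Without the 3 arrays that stood apart the difference was 0.36 (adjusted p = 0.866).

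Relative to cHF, Fbp2 differed by 0.18 ± 0.10 (log2, SE), 95% interval -0.026 to 0.39, limma adjusted p = 0.816, in cHF+F and by -0.13 ± 0.10 (log2, SE), 95% interval -0.34 to 0.078, limma adjusted p = 0.996, in cHF+ROSI. The cHF mean lay between the other groups, at -0.079 ± 0.19 (SD, n = 8) against 0.10 ± 0.23 in cHF+F and -0.21 ± 0.22 in cHF+ROSI. The Cy3 channel, which held the same pool on every array, differed by -0.15 (log2) between cHF+F and cHF+ROSI arrays at this probe and by 0.21 between cHF+ROSI and cHF arrays, the latter past an unadjusted p of 0.05 with slide as a block. In Cy5 alone cHF+F and cHF+ROSI differed by 0.19, and the sign of cHF+ROSI against cHF turned, to 0.087. The part of the reference channel in the ratio was not tested. The mean over the 7 fast fibre markers ran from -0.20 to 0.51 in cHF, -0.076 to 0.50 in cHF+F and -0.88 to 0.54 in cHF+ROSI, and all 7 had the higher mean in cHF+F than in cHF+ROSI, 0 of them at an unadjusted p under 0.05. Their part in the Fbp2 values was not tested.

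The promoter of Fbp2 is shown because this gene differed most, and that of Ldha because it was the other member with the same short motif. Both are the 250 bases before an annotated start of the gene, from RefSeq on GRCm38.p6, with each CACGTG, a form of E-box that reads the same on both strands and is a known element of glucose-responsive genes, in capitals. The Fbp2 window lies at chr13:62858401-62858650 on the minus strand and the Ldha window at chr7:46845554-46845803 on the plus strand. Ldha has a further window, before another annotated start, at chr7:46846832-46847081, which holds 0 CACGTG and is not shown.

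Fbp2: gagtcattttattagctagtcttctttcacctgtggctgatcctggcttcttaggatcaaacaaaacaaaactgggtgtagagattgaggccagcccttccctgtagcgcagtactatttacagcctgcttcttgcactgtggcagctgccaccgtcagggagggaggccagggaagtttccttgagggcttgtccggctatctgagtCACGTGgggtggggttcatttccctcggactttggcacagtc
Ldha: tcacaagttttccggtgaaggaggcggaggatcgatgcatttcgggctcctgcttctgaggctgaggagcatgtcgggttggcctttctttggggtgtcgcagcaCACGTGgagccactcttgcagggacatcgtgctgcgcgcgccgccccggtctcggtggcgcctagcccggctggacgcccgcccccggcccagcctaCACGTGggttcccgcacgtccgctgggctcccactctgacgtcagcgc

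Promoter windows were at hand for 7 of the 9 genes, 10 windows in all, and Slc2a4 and Gpd1 had none. CACGTG stood in 2 of these 10 windows and in 6.02% of all 32851 windows of this length. The wider E-box CANNTG, of which CACGTG is one form, stood in 6 of the 10 and in 66.2% of all windows, and the GC box GGGCGG on either strand in 4 of the 10 and in 32.7%. These are letter matches, with no binding measured.

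The glycerophosphate shuttle enzymes had 2 measured probes each. The brighter Gpd1 probe (NM_010271, chr15:99552937-99552996, plus strand) ran from -0.38 to 0.27 with a median of 0.011 in cHF, from -0.17 to 0.41 with a median of 0.060 in cHF+F and from -0.54 to 0.095 with a median of -0.15 in cHF+ROSI. The lowest mice were cHF+ROSI replicates 3 and 7, and the groups overlapped. On replicate 3 the brightest probes were low as a set, and with processed signals this mouse was at 0.26. Between cHF+F and cHF+ROSI the difference was 0.31 ± 0.11 (log2, SE), 95% interval 0.073 to 0.54, limma adjusted p = 0.640, a 1.24-fold level in cHF+F. The cHF+F mouse was higher on 8 of 8 slides, by 0.014 on slide 6 to 0.57 on slide 1, as were 1.23% of all probes. The block on slides gave an adjusted p = 0.193, and in Cy5 alone the difference was 0.069.

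The dimmer Gpd1 probe, which the files place at chr15:99550573-99551260 and so across a junction of the same transcript, gave 0.086 ± 0.085 for the same comparison, with 4 slides higher and 4 lower. Its levels ran from -0.29 to 0.12 with a median of -0.14 in cHF+F and from -0.56 to 0.025 with a median of -0.20 in cHF+ROSI. Neither probe reached an unadjusted p under 0.05 against cHF: the brighter gave 0.15 ± 0.11 in cHF+F and -0.16 ± 0.11 in cHF+ROSI, the dimmer 0.014 ± 0.085 and -0.073 ± 0.085. In Cy5 alone the sign at the brighter probe turned for cHF+ROSI, to 0.029. Gpd1 is abundant in fat cells too, and the mean over the 7 adipocyte markers ran from -0.98 to 0.70 in cHF, -1.31 to 1.02 in cHF+F and -0.87 to 0.33 in cHF+ROSI. The part of fat cells in the Gpd1 values was not tested.

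**Figure D3:**
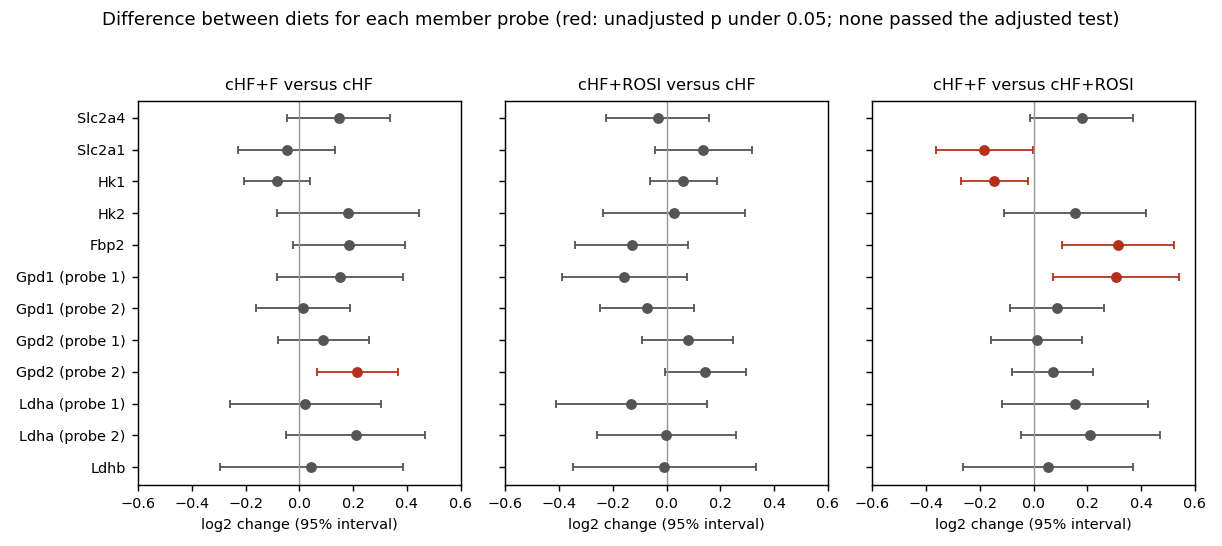
Difference in log2 (Cy5 / Cy3) between diets for the 12 measured member probes, with 95% intervals from limma, in the 3 comparisons. Points in red had an unadjusted p under 0.05: Gpd2 probe 2 between cHF+F and cHF, and Slc2a1, Hk1, Fbp2 and Gpd1 probe 1 between cHF+F and cHF+ROSI.

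Gpd2, the mitochondrial partner, had one probe to the cDNA AK080240 (chr2:57185596-57185655, plus strand, named by the array's own annotation) and one to NM_010274 (chr2:57179484-57179649). The NM_010274 probe gave the lowest p of any member probe against cHF. Its levels ran from -0.36 to -0.028 with a median of -0.063 in cHF, where every mouse was below the pool, from -0.12 to 0.30 with a median of 0.13 in cHF+F and from -0.27 to 0.34 with a median of 0.0098 in cHF+ROSI. The difference between cHF+F and cHF was 0.21 ± 0.074 (log2, SE), 95% interval 0.064 to 0.37, limma adjusted p = 0.506, a 1.16-fold level, with 7 of 8 cHF+F mice above the cHF mean. On the slides 7 of 8 pairs were higher, against 7.96% of all probes with at least 7. The block on slides gave an adjusted p = 0.167. In cHF+ROSI the same probe was 0.14 ± 0.074 from cHF (adjusted p = 0.996), also with 7 of 8 slides higher, beside 4.13% of all probes. It passed an unadjusted p of 0.05 there with slide as a block (adjusted p = 0.458).

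The brighter AK080240 probe ran from -0.26 to 0.21 with a median of -0.035 in cHF, from -0.064 to 0.27 with a median of 0.082 in cHF+F and from -0.22 to 0.31 with a median of 0.054 in cHF+ROSI. Its differences from cHF were 0.089 ± 0.083 in cHF+F and 0.078 ± 0.083 in cHF+ROSI. The probes of Gpd2 thus had the same sign in both comparisons, and 1 of the 2 passed an unadjusted p under 0.05 in the first. Whether they bind the same transcript was not given in the sources used here.

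**Figure D4:**
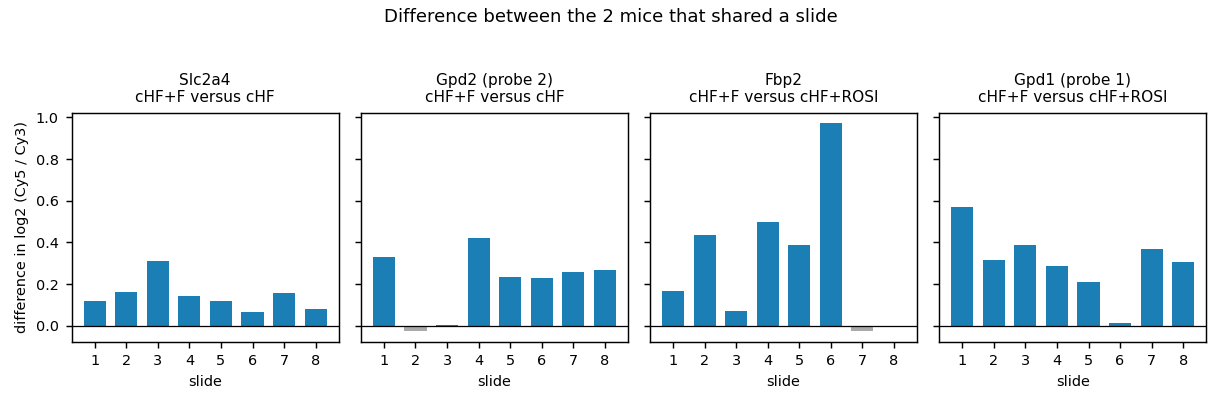
Difference in log2 (Cy5 / Cy3) between the 2 mice that shared each of the 8 slides, for Slc2a4 and Gpd2 (probe 2) in cHF+F against cHF, and for Fbp2 and Gpd1 (probe 1) in cHF+F against cHF+ROSI. Slc2a4 and Gpd1 were above 0 on all 8 slides, Gpd2 and Fbp2 on 7.

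Ldha was measured by 2 bright probes to NM_010699, one in a single block (chr7:46723561-46723620, plus strand) and one placed across a junction (chr7:46722098-46723027). The spot of the first probe was flagged on cHF replicate 3, so that 7 cHF mice entered. It ran from 0.17 to 0.76 with a median of 0.48 in cHF (n = 7), from 0.25 to 0.76 with a median of 0.54 in cHF+F and from -0.49 to 0.77 with a median of 0.44 in cHF+ROSI. The lowest mouse in all was cHF+ROSI replicate 3, the array on which the brightest probes were low as a set. Differences from cHF were 0.022 ± 0.14 in cHF+F and -0.13 ± 0.14 in cHF+ROSI. The latter was -0.013 without cHF+ROSI replicate 3 and -0.043 without the 3 arrays that stood apart. Likewise cHF+F minus cHF+ROSI went from 0.15 to 0.035 without that replicate. The signs of all 3 differences turned in Cy5 alone.

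At the second Ldha probe cHF ran from -0.38 to 0.059 with a median of -0.12, cHF+F from -0.19 to 0.31 with a median of 0.065 and cHF+ROSI from -0.86 to 0.25 with a median of 0.092. Here cHF+F differed from cHF by 0.21 ± 0.13 (log2, SE), 95% interval -0.050 to 0.47, limma adjusted p = 0.833, and the block on slides took it past an unadjusted p of 0.05 (adjusted p = 0.352). The cHF+F mouse was higher on 7 of 8 slides, against 7.96% of all probes with at least 7. Against cHF+ROSI the difference was 0.21 ± 0.13, with 5 slides higher and 3 lower. It too passed an unadjusted p of 0.05 with the block (adjusted p = 0.336). The lowest cHF+ROSI mouse was again replicate 3, at -0.86, and at -0.075 with processed signals. The part of this array in the difference was not tested. Between cHF+F and cHF the probes of this gene gave estimates of 0.022 and 0.21, and whether these differ was not tested. On slide 1 the mean over the mice was 0.70 at the first probe and -0.33 at the second.

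Ldhb (NM_008492, chr6:142447540-142447599, minus strand) had its spot flagged on cHF replicates 3 and 8, which left 6 cHF mice. Levels ran from -0.58 to 0.10 with a median of -0.16 in cHF (n = 6), from -0.52 to 0.15 with a median of -0.16 in cHF+F and from -0.91 to 0.35 with a median of -0.16 in cHF+ROSI. The groups overlapped. The differences from cHF were 0.044 ± 0.17 in cHF+F and -0.0084 ± 0.17 in cHF+ROSI, with 95% intervals from -0.30 to 0.39 and from -0.35 to 0.33. The slow fibre markers, whose fibres use Ldhb, ran as a mean of 7 genes from -0.35 to 0.62 in cHF, -1.12 to 0.35 in cHF+F and -1.13 to 0.54 in cHF+ROSI. Of the 7, 6 had the lower mean in cHF+F than in cHF (median -0.52), 4 of them (Myh7, Tnni1, Tnnc1 and Tpm3) at an unadjusted p under 0.05 and 0 after adjustment. Their part in the Ldhb values was not tested.

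For each pair of related genes the difference of the log2 ratios was taken on each array, as a description of their balance relative to the pool. Slc2a4 minus Slc2a1 was -0.34 ± 0.25 (mean and SD) in cHF, -0.15 ± 0.29 in cHF+F and -0.51 ± 0.23 in cHF+ROSI. The cHF+F mouse of slide 1 stood at 0.56 and the other 7 at -0.35 to -0.16. Without slide 1, a choice made after seeing the data, the means were -0.39, -0.25 and -0.50. Hk2 minus Hk1 was 0.082 ± 0.28, 0.35 ± 0.16 and 0.047 ± 0.25 in the same order, and Gpd1 minus Gpd2 was -0.029 ± 0.21, 0.032 ± 0.18 and -0.26 ± 0.31. In these 3 pairs the cHF+F mean was the highest, by differences that were not tested. Ldha minus Ldhb was 0.67 ± 0.33 (n = 6), 0.66 ± 0.27 and 0.56 ± 0.54.

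The members also varied among mice of one diet. Over the 24 arrays, with group means removed, 4 of 36 pairs of genes were correlated after adjustment over the 36 pairs (permutation test of r, 100000 shuffles of the arrays within their group, two-sided), and 3 of them by rho. Slc2a4 and Hk2 had r = 0.69 and rho = 0.72 (permutation p = 0.000880 and 0.000670, adjusted p = 0.0317 and 0.0241), and r = 0.63 without the 2 arrays farthest from the Slc2a4 median. Fbp2 and Ldhb varied inversely, with r = -0.61 and rho = -0.59 over 22 arrays (permutation p = 0.00361 and 0.00386, adjusted p = 0.0392 and 0.0463), and r = -0.53 without the 2 farthest.

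Gpd1 and Ldha had r = 0.58 and rho = 0.64 over 23 arrays (permutation p = 0.00436 and 0.00219, adjusted p = 0.0392 and 0.0394), and r = 0.55 without the 2 farthest. Slc2a4 and Ldha had r = 0.67 and rho = 0.52 over 23 arrays (permutation p = 0.00372 and 0.0206, adjusted p = 0.0392 and 0.123), which fell to r = 0.44 without the 2 farthest arrays. Both pairs used only the first, brighter Ldha probe.

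None of the 4 pairs stayed under an adjusted p of 0.05 when slide means were removed as well, where Slc2a4 with Hk2 kept r = 0.68 (adjusted p = 0.0793) and Fbp2 with Ldhb r = -0.71 (adjusted p = 0.0793), and none without slide 1. Without the 3 arrays that stood apart only Slc2a4 with Hk2 passed, at r = 0.75 (adjusted p = 0.0205). The number moved with the normalization, to 36 of 36 pairs with median centring in place of loess.

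**Figure D5:**
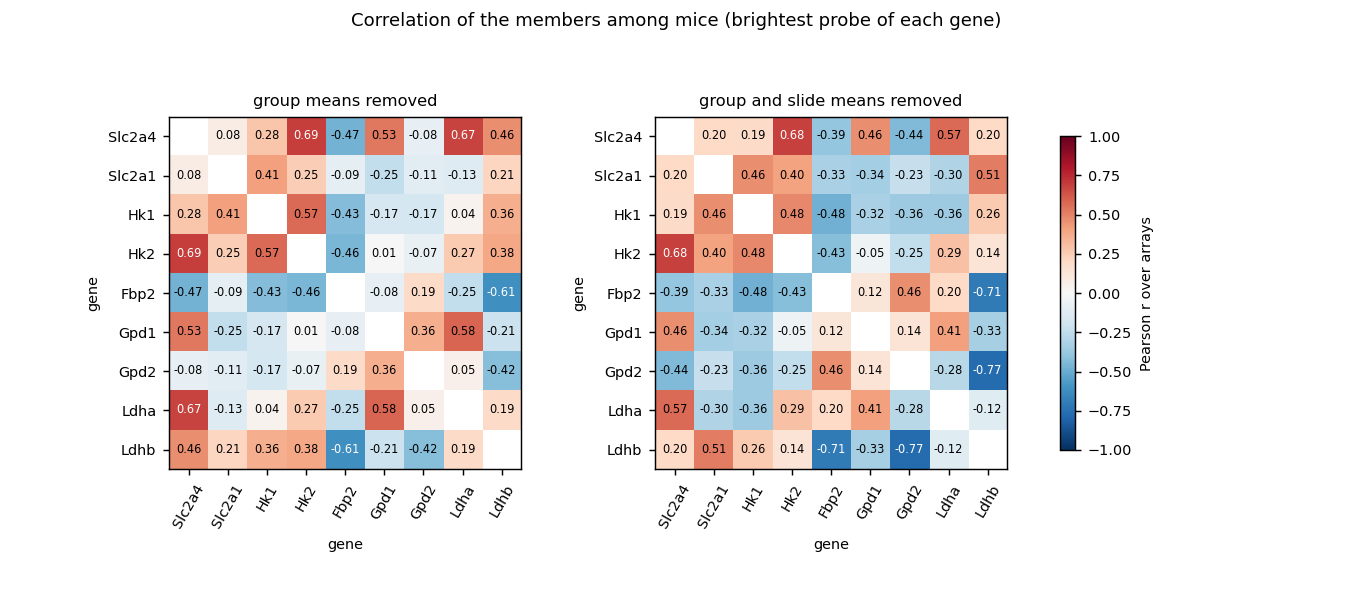
Pearson r between the 9 member genes over arrays, after removal of group means (left) and of group and slide means (right), red for positive and blue for negative values. Slc2a4 with Hk2 is the strongest positive pair in both panels, Fbp2 is negative with Ldhb in both, and Gpd2 with Ldhb is the most negative on the right.

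As a description only, with no test, the genes most like each member over the arrays with group means removed, out of 10672, were as follows with their r. For Slc2a4 they were Adipor2 (0.86), Ctsd (0.85) and Chchd1 (0.82), for Slc2a1 Rhno1 (0.76), Gpc3 (0.71) and Nfatc2ip (0.67), for Hk1 Ptprf (0.81), Elovl6 (0.81) and Pitpnm1 (0.81) and for Hk2 Stx16 (0.89), Pcp2 (0.85) and Irf2bp2 (0.83). Those of Fbp2 were Nfkbil1 (0.80), H4c14 (0.74) and Mcts2 (0.72), those of Gpd1 Pkm (0.76), 3000002C10Rik (0.70) and Unc45b (0.69) and those of Gpd2 Reep1 (0.85), Atp1b2 (0.84) and Ccz1 (0.81). For Ldha they were Park7 (0.91), Fitm1 (0.91) and Trim54 (0.90), over 23 arrays, and for Ldhb Got1 (0.85), Ephx2 (0.85) and Fndc5 (0.81), over 22. The arrays share slides and the same reference.

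Around the members, a list of 55 genes of glucose uptake, glycolysis, the NADH shuttles and lactate transport gave 46 measured genes. None passed the adjusted test in any comparison. Between cHF+F and cHF, 24 were higher and 22 lower (median 0.0051), with 1 higher and 2 lower at an unadjusted p under 0.05. Between cHF+ROSI and cHF, 14 were higher and 32 lower (median -0.069), with 1 and 3 at that level. Between cHF+F and cHF+ROSI, 29 were higher and 17 lower (median 0.043), with 1 and 1. Of all probes, 6.86%, 4.7% and 6.67% reached that level in these comparisons, in the same order.

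The 5 listed genes with the lowest p in each comparison are named with their log2 difference and SE. In cHF+F against cHF they were the glycerol channel Aqp7 (-0.17 ± 0.063), the vesicle GTPases Rab10 (0.15 ± 0.060) and Rab13 (-0.11 ± 0.056), the Rab GTPase-activating protein Tbc1d1 (-0.23 ± 0.096) that restrains GLUT4 vesicles, and phosphoglycerate kinase Pgk1 (0.19 ± 0.095), with limma adjusted p from 0.553 to 0.754. In cHF+ROSI against cHF they were pyruvate kinase Pkm (-0.21 ± 0.084), mitochondrial aspartate aminotransferase Got2 (-0.17 ± 0.071), Tbc1d1 (-0.21 ± 0.096), the liver-type bisphosphatase Fbp1 (0.65 ± 0.31) and the D-lactate dehydrogenase Ldhd (-0.14 ± 0.070), with an adjusted p of 0.996 for each. In cHF+F against cHF+ROSI they were Pgk1 (0.29 ± 0.095), Aqp7 (-0.16 ± 0.063), Pkm (0.17 ± 0.084), Got2 (0.14 ± 0.071) and muscle phosphofructokinase Pfkm (0.23 ± 0.12), with adjusted p from 0.589 to 0.768. Some of these genes passed an unadjusted p of 0.05 only with slide as a block. They were Pgk1 in cHF+F against cHF, Ldhd in cHF+ROSI against cHF, and Pkm, Got2 and Pfkm in cHF+F against cHF+ROSI. With the block 1933, 1524 and 2094 of the 15958 probes reached that level in these comparisons, in the same order.

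By step of the pathway, lower glycolysis had 7 of 9 genes higher in cHF+F than in cHF (median 0.13) and 7 of 9 higher than in cHF+ROSI (median 0.21). Skeletal muscle markers stood at 5 of 7 higher (median 0.093) and 6 of 7 higher (median 0.22) in these comparisons. Fast fibre markers, which share Tnnt3, Tnni2, Mylpf and Pvalb with that list, stood at 5 of 7 (median 0.044) and 7 of 7 (median 0.15). Beside these stand the low brightest probes of cHF+ROSI replicates 3 and 2 given above. The part of these arrays and markers in the glycolysis counts was not tested. The fructose bisphosphate step, to which Fbp2 belongs, had 6 of 9 higher in cHF+F than in cHF (median 0.071) and 4 of 9 higher than in cHF+ROSI (median -0.015). Among the other NADH shuttle and glycerol genes, 7 of 8 were lower in cHF+ROSI than in cHF (median -0.11). In the same comparison 7 of 7 skeletal muscle markers (median -0.14) and 7 of 7 fast fibre markers (median -0.13) were also lower. The part of these markers in the shuttle count was not tested. The uptake and vesicle genes were split, 6 higher and 7 lower in cHF+F than in cHF, and lactate and pyruvate transport likewise, 3 and 3.

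In the table of normalized values that the authors deposited, which holds Cy5 values on a log2 scale for cHF and cHF+F, the members were tested again. None passed the adjusted test there, in which no probe of 19387 did. Hk2 and Fbp2 reached an unadjusted p under 0.05, at 0.28 (adjusted p = 0.393) and 0.25 (adjusted p = 0.376), and so did the NM_010274 probe of Gpd2, at 0.33 (limma adjusted p = 0.220). That level was reached by 2396 of the 19387 probes. Slc2a4 stood at 0.16 (adjusted p = 0.679).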

How the data were processed

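Gastrocnemius RNA of 24 mice was measured on Agilent two-colour whole mouse genome arrays. Feature Extraction (version 10.5.1.1 per the file headers, 10.5.5.1 in the submitters' processing notes) gave the deposited intensity columns per spot, with mm8 probe positions. Median intensities were background-corrected (limma 3.58.1 in R 4.3.3, normexp, offset 50), loess-normalized within arrays (span 0.3), and flagged spots were left out. Copies of a probe were averaged. Probes needed 4 unflagged arrays a group and a mean signal of 2 times background in both channels, which 15958 of 41174 did (12577 named by RefSeq accession, 2520 by the file's gene name, 861 unnamed). Diets were compared by limma on log2 (Cy5 / Cy3) over all 24 arrays, with Benjamini-Hochberg adjustment over all 15958 probes and a threshold of 0.05. A gene's main probe was its brightest. Named beside the members were, by rule, 5 listed pathway genes per comparison and 3 most similar genes per member.

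Slide number equals replicate number. Deviations of same-slide arrays correlated at r = -0.11 to 0.64, over 0.1 in 18 of 24 pairs. The study's methods name no block, so the reported fit has none despite this likeness, and an alternative fit has slide as a block. Its values are given with the member results whose unadjusted call it changed, and named pathway genes whose call it changed are listed. The table of log2 values deposited by the authors holds normalized Cy5 values, normalized against Cy3 in GeneMaths XT after removal of spots under 2 times background per the methods, with base 2 taken from the range of its values. Its 8 columns named for cHF+F+ROSI match no group in the labels and were not used. Alternatives were another background, normalization, filter, weights or channel, and each array left out. Scripts were tested on simulated data. The members and lists were chosen with earlier results of these data known. Mice were kept 2 a cage per the methods and the labels do not tie them to cages, so p-values measure the spread between these mice, and the number of arrays limits the precision.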

Additional observations from a re-analysis of the deposited data

Results flagged for a closer look

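A single mouse lay far from the rest of its diet at 3 of 36 sets of values (12 probes in 3 diets, Dixon's test at 95%, under which about 1 in 20 sets is marked by chance). Both Slc2a4 cases were mice of slide 1: 0.26 in cHF, where the next value was -0.041, and 0.38 in cHF+F, where the next was 0.12. The third was Gpd2 (NM_010274 probe) in cHF replicate 5, at -0.36 against a next value of -0.18.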

How the results depend on the processing

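No member probe passed the adjusted test in any comparison under any alternative run (0 with each, also with slide as a replicate block, and 0 to 0 with each array left out). Over all probes the block gave 6, 0 and 0 calls and array weights 12, 0 and 0, and without the filter on dim probes 3, 0 and 0, against 0 in the reported fit. The count at an unadjusted p under 0.05 between cHF+F and cHF+ROSI was 4, and 2 without background correction and with processed signals, 0 with median centring and with Cy5 alone, and 2 to 5 with one array left out (2 without cHF+F replicate 8, when Fbp2 and Gpd1 remained). The methods' t-test gave 0, 0 and 3 genes at its threshold and none after Benjamini-Hochberg. Between cHF+F and cHF the count was 0, and 2 in the authors' table and 0 to 1 with one array left out (Slc2a4 without cHF replicate 1, and Fbp2 without cHF replicate 6 or cHF+F replicate 1 or 8), and between cHF+ROSI and cHF it was 0, and 1 without background correction and 0 to 0 with one array left out. The 4 correlated pairs became 0 with slide means removed, 36 with median centring, 22 with Cy5 alone, 3 with processed signals, 0 without slide 1 and 1 without the 3 arrays that stood apart. Of the original 4, 4 were among the 36, 2 among the 22 and 1 among the 3, counts that take no account of sign. In Cy5 alone r was -0.73 for Slc2a4 with Hk2 and -0.78 for Slc2a4 with Ldha, both of the opposite sign to the reported r. There it was 0.094 for Gpd1 with Ldha and -0.39 for Fbp2 with Ldhb. With processed signals Slc2a4 with Ldha also turned, to -0.14. Median centring and Cy5 alone moved the median of all probes by less than 0.1.

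The sign of these log2 differences turned, and the cause was not tested. With slide as a replicate block, the values were Ldhb 0.066 in cHF+ROSI versus cHF. With no background correction, the values were Ldha -0.00093 in cHF+F versus cHF, and Slc2a4 0.060, Ldhb 0.080 in cHF+ROSI versus cHF, and Ldhb -0.051 in cHF+F versus cHF+ROSI. With Feature Extraction's processed signals, the values were Slc2a4 0.022, Ldha 0.014, Ldhb 0.013 in cHF+ROSI versus cHF, and Ldhb -0.0028 in cHF+F versus cHF+ROSI. With median centring, the values were Slc2a4 0.016, Hk1 -0.043, Ldha 0.059, Ldhb 0.13 in cHF+ROSI versus cHF, and Gpd2 -0.061, Ldha -0.046, Ldhb -0.11 in cHF+F versus cHF+ROSI. With Cy5 alone, the values were Ldha -0.16, Ldhb -0.018 in cHF+F versus cHF, and Hk1 -0.20, Fbp2 0.087, Gpd1 0.029, Ldha 0.19, Ldhb 0.033 in cHF+ROSI versus cHF, and Hk2 -0.19, Gpd2 -0.019, Ldha -0.35, Ldhb -0.052 in cHF+F versus cHF+ROSI. With array weights, the values were Gpd2 -0.048 in cHF+F versus cHF+ROSI. With slide 1 left out, the values were Slc2a1 0.0062 in cHF+F versus cHF. With the 3 arrays that stood apart left out, an alternative chosen after seeing the data, the values were Ldhb 0.017 in cHF+ROSI versus cHF. With the authors' table, the values were Ldhb -0.049 in cHF+F versus cHF. With one array left out, the ranges that crossed 0 were, for cHF+F against cHF, Slc2a1 -0.084 to 0.011, Ldha -0.030 to 0.068 and Ldhb -0.032 to 0.10, for cHF+ROSI against cHF, Slc2a4 -0.070 to 0.033, Hk2 -0.030 to 0.11 and Ldhb -0.087 to 0.092, and for cHF+F against cHF+ROSI, Gpd2 -0.030 to 0.046 and Ldhb -0.048 to 0.13. Fbp2 kept its sign between cHF+F and cHF+ROSI under all 10 settings on all arrays or a set of them, at 0.19 to 0.40.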
